A study of Mus musculus with 12 samples.

Results

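Metaphase II (MII) oocytes of mice without amphiregulin (Areg -/-) were compared with MII oocytes of wild-type mice by the mRNA that travelled with polysomes, the strings of ribosomes on messages under translation. The comparison took the 3 arrays labelled amphiregulin -/- at the MII stage and the 3 arrays labelled wild type at that stage, 6 of the 12 arrays of the series, and covered all 16579 genes that could be named. The remaining 6 arrays, 3 Areg -/- and 3 wild type, came from germinal vesicle (GV) oocytes, which rest in meiotic prophase. All mice had been primed with PMSG, which stimulates the follicles. The MII groups received hCG 48 h after it, in place of the ovulatory surge, and were sampled 14 h after hCG. The GV groups were sampled at 0 h of hCG. Both genotypes carry the same strain label, which names C57BL/6J and 129Sv. The deletion is described as Areg -/- with no cell type or driver given, and whether controls were littermates, the age of the mice and the number of oocytes in a sample are not stated in the sources at hand. The 3 arrays of a group are labelled biological replicates from independent sample sets, without naming the animals, so a p-value reflects how far these samples spread.

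Amphiregulin is a ligand of the EGF receptor. Granulosa cells of the follicle make it after the ovulatory surge, it is cut from the cell surface by the protease Adam17, and it acts on the cumulus cells around the oocyte, which then release the oocyte from meiotic arrest. The maturing oocyte is transcriptionally silent, so its protein synthesis is governed by which stored messages are loaded on ribosomes. The series title asks whether this translational program differs between the genotypes.

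The MII arrays were about as much alike between genotypes as within a genotype. Across genes, Pearson correlations were 0.922 to 0.928 among the Areg -/- MII arrays, 0.920 to 0.949 among the wild-type MII arrays and 0.919 to 0.952 between the genotypes. The interquartile range of the log2 values over all genes was 3.59 ± 0.38 in Areg -/- MII arrays and 3.81 ± 0.33 in wild-type MII arrays (SD, n = 3 each), and the narrowest 3 were Areg -/- 2 (3.38), Areg -/- 3 (3.36) and wild-type 2 (3.44). The Gapdh control signal at the 3' end minus that at the 5' end, which moves with RNA integrity and priming, was 2.71 ± 0.61 in Areg -/- MII and 3.23 ± 0.48 in wild-type MII, and for Actb it was -0.77 ± 0.37 in Areg -/- MII and -1.17 ± 0.18 in wild-type MII. The 15 oocyte markers had array medians of 11.46 to 11.78 in Areg -/- MII and 11.80 to 12.13 in wild-type MII. All 3 Areg -/- medians lay below the wild-type ones, and both lay far above the medians of all genes, at 5.73 to 5.87. Taken gene by gene, the differences had a median of 0.02, with 8 of the 15 above 0 and 7 below.

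Areg itself gave a signal near the bottom of the scale in oocytes of either genotype. It stood at 2.45, 2.55 and 3.03 in the Areg -/- MII arrays, against 2.59, 2.94 and 2.62 in the wild-type MII arrays (log2 intensity). The difference was -0.04 on the log2 scale with a 95% confidence interval of -0.58 to 0.50, so the transcript in MII oocytes gave no check of the genotype labels.

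A total of 10 genes passed the limma test at MII (Benjamini-Hochberg adjusted p under 0.05), 0.0603% of those tested. Of these, 9 were lower in Areg -/- oocytes (0.0543% of all genes) and 1 was higher (0.00603%). Their roles were varied: ubiquitin activation, mitochondrial metabolism and translation, splicing, DNA binding, cell-cycle control and intracellular transport. At an unadjusted p under 0.05 the count was 1024 genes, 6.18% of those tested. Of these, 380 were higher (2.29%) and 644 lower (3.88%). The arrays of the genotypes did not overlap for 686 genes on the higher side (4.14%) and 690 on the lower (4.16%). The median difference of all genes was 0.05, with quartiles at -0.25 and 0.29, and the median standard error (SE) was 0.37. A log2 difference of 1 or more was seen in 1232 genes, 469 higher and 763 lower in Areg -/- oocytes.

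**Figure D1:**
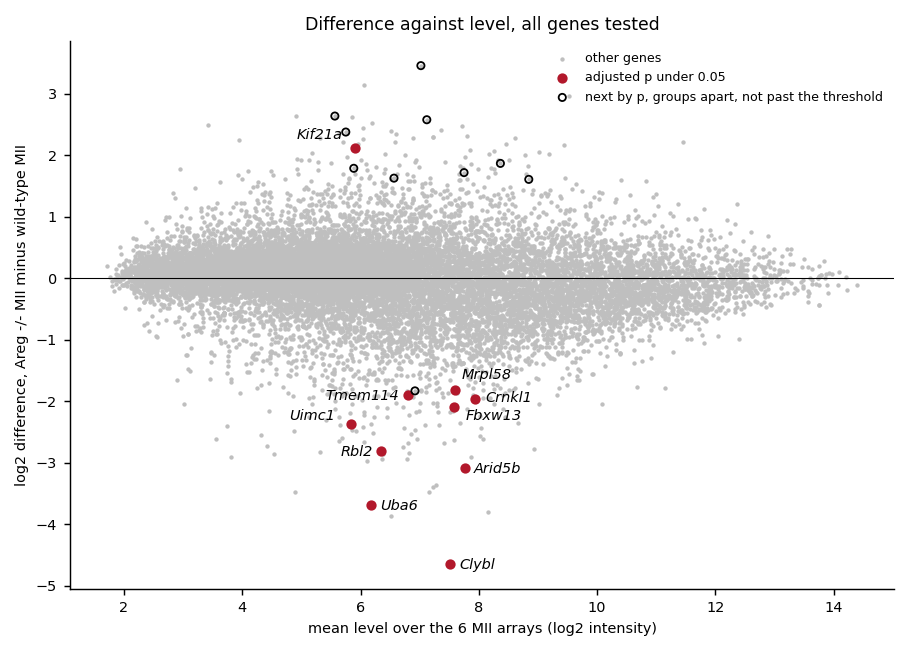
Each point is a gene, placed by its mean level over the 6 MII arrays (x axis, log2 intensity) and by its difference, Areg -/- MII minus wild-type MII (y axis, log2). The 10 filled red points passed the threshold, with Clybl lowest at -4.64 and Kif21a the only one above 0 at 2.12, and open circles mark the 10 further genes not past it, taken by p within each direction among brighter genes whose groups did not overlap.

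The gene with the largest fall was Clybl, which encodes a mitochondrial citramalyl-CoA lyase. Its level was 4.91, 5.70 and 4.99 in Areg -/- MII arrays, against 10.19, 8.43 and 10.90 in wild-type MII arrays. All Areg -/- arrays lay well below the lowest wild-type array. The difference was -4.64 ± 0.60 (SE), 24.9-fold lower (limma adjusted p = 0.027). In GV oocytes Clybl stood at 9.74, 9.38 and 9.08 in Areg -/- arrays, against 9.54, 9.77 and 8.08 in wild type, and these groups overlapped. Mrpl58, a peptidyl-tRNA hydrolase built into the mitochondrial ribosome that frees stalled chains, was at 6.61, 6.63 and 6.81 in Areg -/- MII, against 8.66, 8.42 and 8.41 in wild-type MII. The 3 values of each genotype lay close together, and the fall was -1.81 ± 0.20, 3.51-fold (adjusted p = 0.014). Both of these genes of mitochondria were at similar levels in GV oocytes of either genotype, with differences there of 0.27 ± 0.60 for Clybl and 0.17 ± 0.20 for Mrpl58.

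Of the genes that act with ubiquitin, Uba6 and Uimc1 fell, and so did Fbxw13, whose family joins substrates to ubiquitin ligases. Uba6, an enzyme that activates ubiquitin and the ubiquitin-like protein FAT10, stood at 4.84, 4.14 and 4.04 in Areg -/- MII, against 7.18, 8.40 and 8.46 in wild-type MII. The fall was -3.68 ± 0.37, 12.8-fold, with the smallest p of all genes (adjusted p = 0.012). In GV oocytes the Uba6 values were 4.69, 5.10 and 4.40 in Areg -/-, against 6.86, 7.13 and 6.97 in wild type, so the genotypes did not overlap there either. Uimc1, a ubiquitin-binding subunit of a BRCA1 complex that is drawn to DNA damage, was at 5.08, 4.04 and 4.82 in Areg -/- MII, against 7.14, 6.94 and 6.97 in wild-type MII, a fall of -2.37 ± 0.31 (adjusted p = 0.027). Fbxw13, a member of an F-box family with many similar copies in oocytes, stood at 6.65, 6.33 and 6.61 in Areg -/- MII, against 8.13, 8.91 and 8.88 in wild-type MII. Its fall was -2.10 ± 0.25 (adjusted p = 0.018), and since copies of this family resemble each other, the probes may read more than 1 of them. Uimc1 and Fbxw13 overlapped between the genotypes at GV, with differences of 0.44 ± 0.31 and -0.29 ± 0.25.

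Genes of the nucleus formed the next group. Arid5b, a DNA-binding transcription regulator, was at 5.66, 6.87 and 6.13 in Areg -/- MII, against 10.06, 8.55 and 9.29 in wild-type MII, a fall of -3.08 ± 0.44 (8.47-fold, adjusted p = 0.045). Rbl2, the retinoblastoma family protein p130 that represses E2F target genes, stood at 5.22, 4.37 and 5.24 in Areg -/- MII, against 7.6, 8.42 and 7.22 in wild-type MII. Rbl2 fell by 2.80 on the log2 scale (SE 0.40, adjusted p = 0.044), and its GV values were low in both genotypes, at 4.55, 3.67 and 4.52 in Areg -/- and 4.79, 4.65 and 4.01 in wild type. Crnkl1, a core protein of the spliceosome, was at 6.91, 6.96 and 6.98 in Areg -/- MII, against 8.92, 9.13 and 8.70 in wild-type MII. Its fall was -1.96 ± 0.21, 3.90-fold (adjusted p = 0.014), and at GV it stood at 6.33, 6.61 and 6.76 in Areg -/-, against 7.51, 7.86 and 7.72 in wild type, again with no overlap.

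The last 2 genes past the threshold encode a transmembrane protein and a motor. Tmem114 was at 5.61, 5.69 and 6.29 in Areg -/- MII, against 7.52, 7.72 and 8.0 in wild-type MII, a fall of -1.89 ± 0.28 (adjusted p = 0.045). Kif21a, a kinesin that moves along microtubules and damps their growth, was the gene that rose. It stood at 6.82, 7.43 and 6.62 in Areg -/- MII, against 5.18, 4.32 and 5.01 in wild-type MII, a rise of 2.12 ± 0.29, 4.35-fold (adjusted p = 0.041). Its 4 probe sets gave differences of 2.05 to 2.12, 3 of them the same value, so they are not separate measurements. The other 9 genes had 1 probe set each. Just outside the threshold came Fgf16 (2.45) and Trmt10c (-2.83), each with an adjusted p of 0.051.

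**Figure D2:**
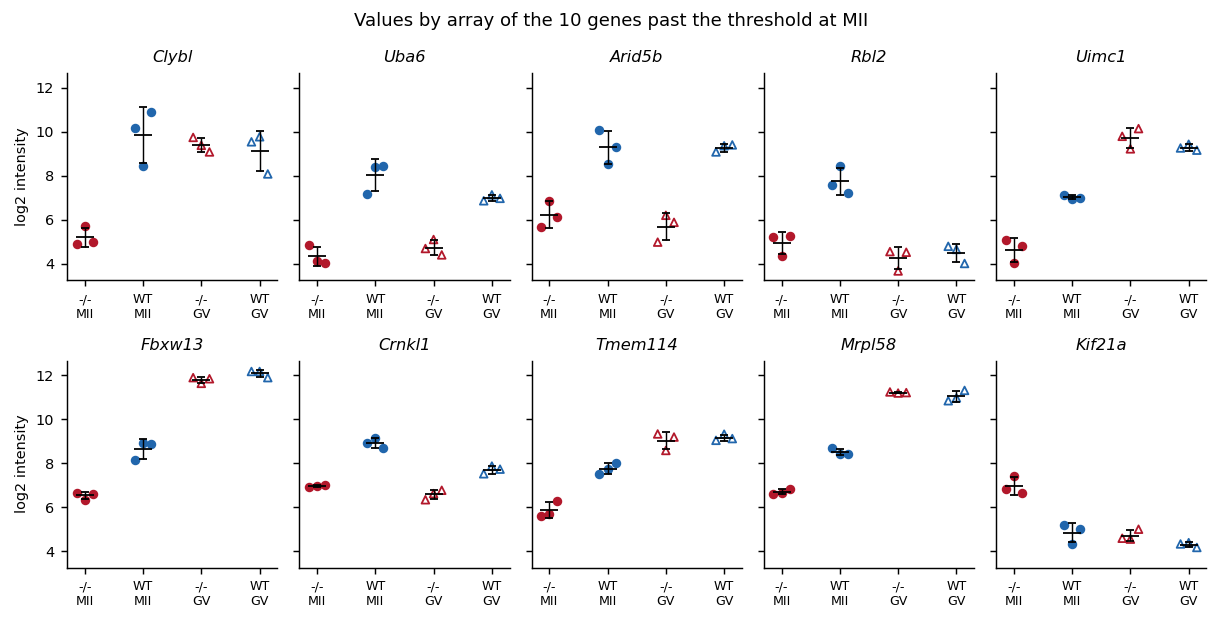
Log2 intensity of the 10 genes past the threshold at MII on every array. Filled circles are MII and open triangles GV arrays, red Areg -/- and blue wild type, and bars give the mean and SD of 3 arrays. The Areg -/- and wild-type circles are apart in every panel, while the triangles are apart in the same direction for 4 genes: Uba6, Arid5b, Crnkl1 and Kif21a.

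The GV arrays share no sample with the MII arrays and gave the genotype contrast at another stage. They entered the shared estimate of the spread behind the MII calls, so for the called genes they are not an independent check. The median within-group SD of a gene was 0.43 in Areg -/- MII and 0.40 in wild-type MII. It was 0.30 in Areg -/- GV and 0.35 in wild-type GV. The shared estimate may thus understate the spread at MII and overstate it at GV, which limits comparing counts between the stages. By limma 0 genes passed at GV (0.0% of all genes), with 589 genes at an unadjusted p under 0.05 (3.55%), 1.96% of all genes on the higher side and 1.59% on the lower. Of the 10 genes called at MII, 4 were also apart at GV without overlap and in the same direction, where 5.09% of all genes were apart on the higher side and 4.75% on the lower, 9.84% together. Uba6 differed by -2.26 ± 0.37 there, Arid5b by -3.59 ± 0.44, Crnkl1 by -1.12 ± 0.21 and Kif21a by 0.42 ± 0.29, with adjusted p = 0.23, 0.063, 0.31 and 1.0 in that order. Over all genes the MII and GV differences had a Pearson correlation of 0.03 and a Spearman correlation of -0.04, a description across genes that are not independent.

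Whether the difference at MII departed from that at GV was tested by the interaction, and 0 genes passed it by limma (0.0%), with 772 at an unadjusted p under 0.05 (4.66%), 1.87% of all genes with a positive value and 2.79% with a negative one. For Clybl the MII difference minus the GV difference was -4.91 (adjusted p = 0.36), for Uimc1 -2.81 (0.27), for Rbl2 -2.56 (0.53) and for Mrpl58 -1.98 (0.27). A difference confined to MII was therefore not shown for these genes. Their courses through maturation can be set side by side, although each shares arrays with the MII comparison. Rbl2 was higher at MII than at GV by 0.70 in Areg -/- and by 3.26 in wild-type oocytes. For Clybl the MII level minus the GV level was -4.20 in Areg -/- and 0.71 in wild-type oocytes. It was -4.52 in Areg -/- and -2.54 in wild type for Mrpl58, -5.25 in Areg -/- and -3.43 in wild type for Fbxw13, -5.07 in Areg -/- and -2.26 in wild type for Uimc1, and -3.16 in Areg -/- and -1.4 in wild type for Tmem114.

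Further genes, up to 10 in each direction with those past the threshold, were taken by smallest p among genes whose groups did not overlap and whose level was above that of the median gene, so they are not simply the next by p. On the higher side these were 9 genes with differences of 1.61 to 3.46, none of which passed (adjusted p = 0.14 to 0.23). At GV, 6 of the 9 had a higher mean in Areg -/- oocytes. On that side 5 did not overlap at GV, against 5.09% of all genes. Ctif (-0.53), Nelfb (-0.33) and Anapc7 (-0.1) had a lower mean in Areg -/- oocytes at GV. 2300002M23Rik stood at 8.30, 10.16 and 7.80 in Areg -/- MII, against 5.40, 5.64 and 4.84 in wild-type MII, and at GV at 9.60, 7.61 and 7.89 in Areg -/-, against 7.08, 7.33 and 6.59 in wild type. H2-Aa, an alpha chain of MHC class II, was at 8.44, 8.22 and 8.57 in Areg -/- MII, against 4.54, 6.32 and 6.64 in wild-type MII, with GV values of 10.61, 10.48 and 10.05 in Areg -/-, against 8.12, 8.95 and 9.38 in wild type. Both genes were higher on every Areg -/- array than on any wild-type array of the same stage. Ctif, which starts translation on newly exported messages that still carry the nuclear cap-binding complex, was at 6.2, 7.43 and 7.02 in Areg -/- MII, against 5.35, 4.04 and 3.35 in wild-type MII. The transcription elongation genes Ell3 and Nelfb differed by 2.38 ± 0.49 and 1.61 ± 0.33, the ribosome assembly gene Tbl3 by 1.72 ± 0.35, the transcription regulator gene Nacc1 by 1.63 ± 0.32 and the IgG-binding mucin-like gene Fcgbp by 1.87 ± 0.34. On the lower side Tmem231, a protein of the ciliary transition zone, stood at 6.49, 5.70 and 5.83 in Areg -/- MII, against 8.0, 8.0 and 7.48 in wild-type MII (-1.83 ± 0.29, adjusted p = 0.079).

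**Figure D3:**
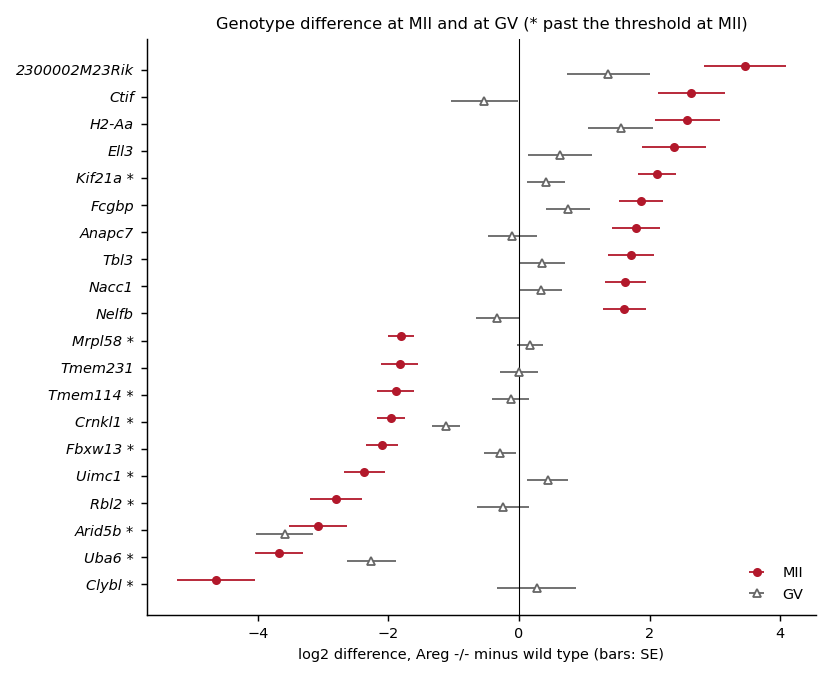
Genotype differences, Areg -/- minus wild type (x axis, log2, bars give the SE), at MII (red circles) and at GV (grey triangles) for the 10 genes past the threshold at MII, marked with a star, and for the 10 further genes, not past it, taken by p within each direction among genes brighter than the median gene whose groups did not overlap. Arid5b and Uba6 lie far below 0 at both stages, and Clybl is at -4.64 at MII and 0.27 at GV.

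Genes of the EGF network, to which the deleted ligand belongs, gave 0 of 25 measured members past the threshold in either direction. At an unadjusted p under 0.05 there were 2 lower and 0 higher, 8.0% of the list against 6.18% of all genes, and the median difference was -0.09 against 0.05 over all genes. Egf, the founding ligand, was at 8.37, 8.42 and 9.44 in Areg -/- MII, against 10.57, 9.47 and 9.77 in wild-type MII, a difference of -1.20 ± 0.40 (adjusted p = 0.57). The highest Areg -/- array lay just below the lowest wild-type array. Nrg3, a neuregulin ligand of ErbB4, was at 3.82, 4.6 and 4.04 in Areg -/- MII, against 4.95, 6.09 and 5.10 in wild-type MII, and differed by -1.23 ± 0.35 (0.45). Grb7, an adaptor that binds ErbB receptors, stood at 10.02, 5.22 and 9.87 in Areg -/- MII, against 9.86, 9.93 and 11 in wild-type MII, a difference of -1.90 ± 1.04 that was -0.32 without Areg -/- MII 2. The ligands on either side of Areg in gene order, Ereg and Btc, were near the lowest values, with differences of 0.28 ± 0.26 for Ereg and 0.49 ± 0.32 for Btc, the second of which was 0.08 without Areg -/- MII 3.

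The PI3K, AKT and mTOR pathway, which links growth factor receptors to translation initiation, had 0 of 35 members past the threshold. At an unadjusted p under 0.05 it had 4 lower and 2 higher members, 17.1% of the list, against 6.18% of all genes and 9.67% of the brightest of 4 equal groups of genes. Eif4ebp2, which holds back the cap-binding factor eIF4E until mTOR phosphorylates it, was at 8.67, 8.45 and 8.05 in Areg -/- MII, against 9.87, 9.25 and 10.21 in wild-type MII (-1.39 ± 0.37, adjusted p = 0.38). The kinase subunit gene Pik3cd differed by -1.52 ± 0.47 and the mTOR inhibitor gene Tsc2 by -1.56 ± 0.50 (0.50 and 0.56). All 3, taken by the smallest p of the list, were lower on every Areg -/- MII array than on any wild-type MII array. Of the 35 members, 4 did not overlap on the lower side and 1 on the higher, against 4.16% and 4.14% of all genes. The other members at an unadjusted p under 0.05, named after their values were seen, were Eif4b (-0.77), Rps6kb2 (0.87) and Irs1 (0.55). The list median was -0.18.

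Regulators of mRNA translation, storage and decay had 0 of 37 members past the threshold, 4 lower and 0 higher at an unadjusted p under 0.05 (10.8%), and a median of -0.12. Dazl, an RNA-binding protein that activates translation of stored messages, stood at 11.57, 11.35 and 11.59 in Areg -/- MII, against 12.23, 12.07 and 12.28 in wild-type MII. Its difference of -0.69 ± 0.21 did not pass (adjusted p = 0.48). At GV it stood at 9.71, 9.96 and 9.52 in Areg -/-, against 10.29, 10.31 and 10.57 in wild type, a difference of -0.66 ± 0.21, so at either stage Dazl was lower on all Areg -/- arrays than on any wild-type array, and the interaction was -0.03. Papolg, a poly(A) polymerase, was at 9.25, 8.23 and 9.00 in Areg -/- MII, against 10.27, 10.95 and 10.25 in wild-type MII (-1.66 ± 0.41, adjusted p = 0.33), and at GV the genotypes overlapped.

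Of 20 messages known to gain translation as oocytes mature, 0 passed, 1 was lower at an unadjusted p under 0.05 (5.0%) and the median difference was -0.01. Ccnb1, the cyclin partner of Cdk1, stood at 12.98, 12.97 and 13.16 in Areg -/- MII, against 13.08, 13.08 and 12.99 in wild-type MII, a difference of -0.02 with an interval of -0.58 to 0.55. Mos, the kinase behind MII arrest, differed by 0.27 with an interval of -0.32 to 0.86. Tpx2, a spindle assembly factor and a known target of Dazl, was at 10.03, 9.62 and 10.54 in Areg -/- MII, against 9.62, 10.13 and 10.23 in wild-type MII, a difference of 0.07 with an interval of -0.58 to 0.72. Il7, a cytokine, differed by 0.19 with an interval of -0.66 to 1.03. For these 4 messages the genotypes overlapped at MII. The spindle checkpoint gene Bub1b (-0.38 ± 0.21) and the calcium release channel gene Itpr1 (-0.63 ± 0.38) overlapped as well. With 1 array left out, Mos ranged between 0.06 and 0.49 and Itpr1 between -1.01 and -0.32.

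Cell cycle genes gave 0 of 37 members past the threshold, with 5 lower and 2 higher at an unadjusted p under 0.05 (18.9%, against 6.18% of all genes and 9.67% of the brightest of the 4 groups). The median was -0.05, and it turned to 0.01 after a further quantile normalization and to 0.03 with a covariate for array spread. Anapc7 and Cdc16 encode subunits of the anaphase-promoting complex, which marks cyclin B and securin for degradation. Anapc7 was at 6.43, 6.2 and 7.70 in Areg -/- MII, against 4.70, 5.27 and 5.00 in wild-type MII (1.79 ± 0.37, adjusted p = 0.23). Cdc16 was at 6.43, 5.14 and 4.39 in Areg -/- MII, against 7.90, 7.74 and 7.11 in wild-type MII (-2.26 ± 0.47, 0.23). The phosphatase gene Cdc25b, whose product switches Cdk1 on, differed by -1.83 ± 0.45 (0.33). Plk1 (-1.42), Ccnb3 (-2.38), Fbxo5 (-0.91) and Anapc5 (0.97) were the other members at that level, named after their values were seen.

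Spindle and kinetochore genes had 0 of 39 members past the threshold, 4 lower and 0 higher at an unadjusted p under 0.05 (10.3%). Their median was -0.15, and 30 of the 39 differences were below 0, 76.9%, against 61.1% of the brightest of these 4 groups. With a covariate for array spread the median was -0.03 and 21 of the 39 lay below 0. Kif11, the kinesin that pushes spindle poles apart, stood at 9.18, 9.06 and 9.18 in Areg -/- MII, against 9.81, 9.69 and 9.86 in wild-type MII (-0.65 ± 0.23, adjusted p = 0.63), with no overlap. The chromosome-bound kinesin gene Kif4 (-1.01 ± 0.36) and the kinetochore gene Ndc80 (-0.99 ± 0.41) overlapped between the genotypes, and Ndc80 was at -0.57 without wild-type MII 2.

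In DNA replication, 0 of 34 members passed, 3 were lower and 1 higher at an unadjusted p under 0.05 (11.8%), and the median was -0.23. The polymerase gene Pole was at 7.18, 5.08 and 8.20 in Areg -/- MII, against 8.41, 9.86 and 9.49 in wild-type MII (-2.43 ± 0.68, adjusted p = 0.44), and the difference was -1.56 without Areg -/- MII 2. The helicase gene Mcm3 differed by 1.39 ± 0.36 and the origin recognition gene Orc3 by -0.86 ± 0.30. Among 27 genes of cohesin, the meiotic axis and recombination, 0 passed and 1 lay at that level in each direction (7.41%). These were Wapl, which strips cohesin from chromosomes (-1.0 ± 0.28), and the recombinase gene Dmc1 (0.97 ± 0.28). Sycp1 stood at 2.75 on Areg -/- MII 3 against 6.27 and 6.19 on the other Areg -/- arrays, and its difference of -1.59 ± 0.81 was -0.43 without that array.

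Genes that mark and equip the oocyte gave 0 members past the threshold. Of 23 zona pellucida and oocyte-secreted factors 0 passed, with 3 lower and 0 higher at an unadjusted p under 0.05 (13.0%), and of 30 maternal-effect and reprogramming factors 0 passed and 0 reached that level. The receptor gene Kit differed by -0.87 ± 0.35, the transcription factor gene Nobox by -0.89 ± 0.39 and the gap junction gene Gja4 by -0.76 ± 0.31, and each of them overlapped between the genotypes. Of the maternal-effect factors, 24 of 30 differences lay below 0 (80%), against 61.1% in the brightest of these 4 groups and 44.6% of all genes. Their median was -0.18, against -0.13 in the brightest group, and with a covariate for array spread it was -0.19 with 22 of 30 below 0. Tle6, of the subcortical maternal complex, differed by -0.47 ± 0.22, the histone demethylase gene Kdm1b by -0.52 ± 0.29 and the DNA methylation cofactor gene Dnmt3l by -1.19 ± 0.59, which was -0.50 without Areg -/- MII 3. With Areg -/- MII 2 left out, the difference was -0.56 for Kit, -0.46 for Nobox and -0.31 for Kdm1b, and for Gja4 it was -0.49 without Areg -/- MII 3. Of the 15 oocyte markers 0 passed and 3 were lower at an unadjusted p under 0.05, namely Dazl, Kit and Nobox. These 3 made a share of 20%, against 6.18% of all genes and 9.67% of the brightest of these 4 groups. That share was the highest of the lists examined. The list median was 0.02, and it turned to -0.01 with array medians centred and to -0.06 with a covariate for array spread. The differences ranged from -0.89 to 0.55.

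Of 72 respiratory subunits measured, 0 passed, and at an unadjusted p under 0.05 there were 6 higher and 6 lower. That was 16.7%, against 6.18% of all genes and 9.67% of the brightest of the 4 groups. The median was 0.21, against 0.05 over all genes and -0.13 in the brightest of the 4 groups. At GV the list's median difference was 0.2, so the shift was not particular to MII. The array medians of the list at MII overlapped, at 7.71 to 7.98 in Areg -/- and 7.72 to 7.93 in wild type. Within complex I, Ndufa9 was at 4.61, 5.25 and 6.69 in Areg -/- MII, against 8.86, 7.4 and 7.61 in wild-type MII (-2.44 ± 0.51, adjusted p = 0.22). Ndufb8 was at 9.31, 9.62 and 9.86 in Areg -/- MII, against 8.08, 8.90 and 7.66 in wild-type MII (1.38 ± 0.31, 0.25), and Ndufs8 differed by 1.69 ± 0.42 (0.33). Complex IV held both signs too, with Cox5b at -1.79 and Cox7a2 at 2.02, named after their values were seen. Of 70 mitochondrial ribosomal proteins, Mrpl58 fell, the only gene of any list to pass, and 3 were higher and 3 lower at an unadjusted p under 0.05 (8.57%, Mrpl58 included). Of 29 cytosolic ribosomal proteins 0 passed and 3 reached that level (10.3%), among them Rplp2 at 1.02 ± 0.35. Of 34 proteasome subunits 0 passed and 2 were higher and 2 lower (11.8%), among them Psmc2 at 8.57, 9.94 and 8.37 in Areg -/- MII, against 7.45, 5.00 and 7.49 in wild-type MII (2.32 ± 0.61, adjusted p = 0.37), a difference of 1.49 without wild-type MII 2.

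The remaining lists gave few members at an unadjusted p under 0.05 and 0 past the threshold. In the cAMP and cGMP control of prophase arrest it was 1 of 19 (5.26%): Adcy9, an adenylyl cyclase, at 7.4, 6.65 and 7.01 in Areg -/- MII, against 8.49, 8.03 and 9.35 in wild-type MII (-1.60 ± 0.35, adjusted p = 0.25). At GV Adcy9 was higher on every Areg -/- array, by 0.81 ± 0.35, and the interaction of -2.41 had an adjusted p of 0.53. Of 26 antioxidant enzymes it was 1 (3.85%), the glutathione synthesis gene Gclc, at -1.87 ± 0.50 at MII and 1.43 ± 0.50 at GV. Of 27 apoptosis regulators it was 1 (3.7%), Trp63, the p53 relative that guards oocyte DNA, at 10.42, 10.49 and 11.16 in Areg -/- MII, against 11.50, 11.90 and 12.27 in wild-type MII (-1.20 ± 0.54). Of 21 genes of egg activation and calcium it was 0 (0.0%).

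**Figure D4:**
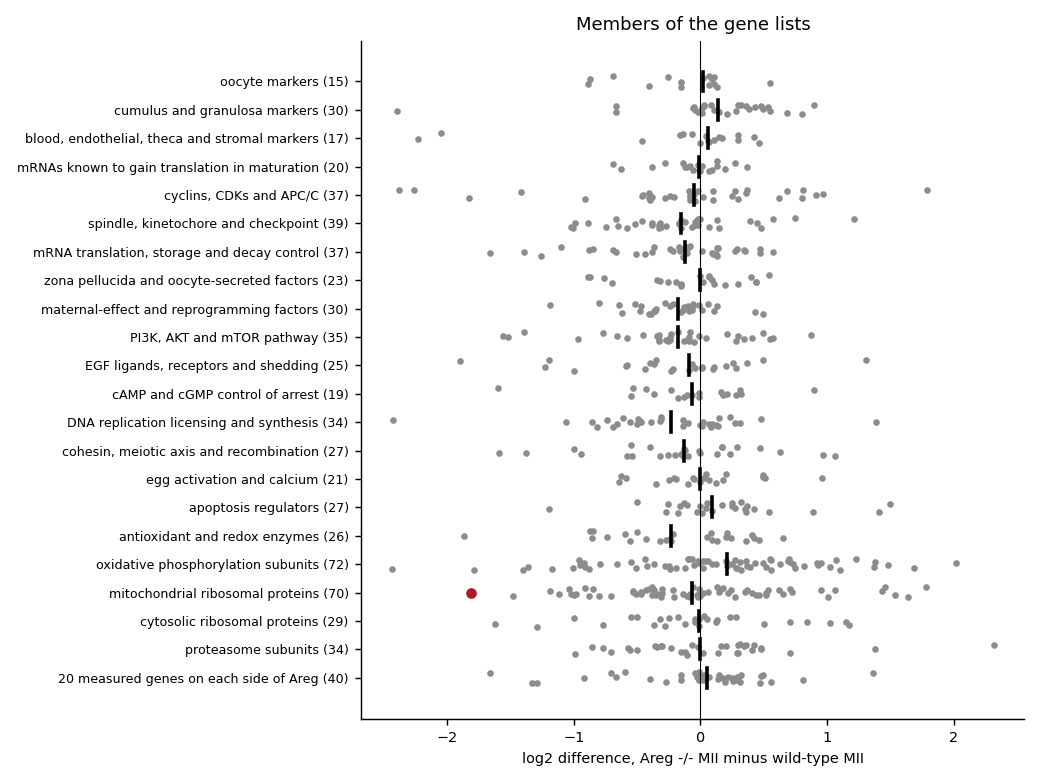
Each point is a gene of a list, placed by its log2 difference, Areg -/- MII minus wild-type MII, with the number of measured genes in brackets and the list median as a black bar. The red point is Mrpl58 at -1.81, the only listed gene past the threshold, and the list medians lie between -0.23 and 0.21.

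The balance of directions moved with the level of a gene and with the scaling of the arrays. The median difference was 0.11 in the dimmest and -0.13 in the brightest of the 4 groups by level, beside the narrower array spread of the Areg -/- MII group. With array medians centred these medians were 0.08 and -0.17, after a further quantile normalization 0.03 and -0.03, and 0.02 and -0.04 when array spread entered as a covariate. Of the genes at an unadjusted p under 0.05, 37.1% were higher in Areg -/- oocytes as deposited, 47.5% after the further normalization, 47.5% with the covariate and 33.4% with array medians centred. The part of the array spread in single results was tested only through these alternatives.

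Markers of other cells had dim list medians and showed 0 members past the threshold, although single members such as Cyp19a1 and Pecam1 were bright. In oocyte samples, fewer somatic cells and less RNA per cell cannot be told apart. Of 30 cumulus and granulosa markers, 1 was lower and 0 higher at an unadjusted p under 0.05 (3.33%), and the list's array medians were 3.69 to 4.71 in Areg -/- MII and 3.89 to 4.53 in wild-type MII. The 1 gene was Gja1, the connexin of cumulus and granulosa cells, at 2.45, 2.38 and 2.80 in Areg -/- MII, against 3.07, 6.41 and 5.34 in wild-type MII (-2.40 ± 0.84, adjusted p = 0.62). Cyp19a1, the aromatase of granulosa cells, was bright in both, at 10.01, 9.30 and 10.42 in Areg -/- MII, against 10.84, 10.37 and 10.55 in wild-type MII. Of 17 markers of blood, vessels, theca and stroma, 2 were lower and 0 higher (11.8%), with array medians of 4.24 to 4.79 in Areg -/- MII and 4.32 to 4.97 in wild-type MII. Pecam1, an adhesion protein of endothelial cells that germ cells also carry, was at 8.57, 9.33 and 9.30 in Areg -/- MII, against 10.43, 11.46 and 11.45 in wild-type MII (-2.05 ± 0.35, adjusted p = 0.10). Tek, an endothelial receptor, was at 4.09, 3.41 and 7.31 in Areg -/- MII, against 7.30, 6.27 and 7.93 in wild-type MII (-2.23 ± 0.90), with a difference of -1.47 without Areg -/- MII 2 and -3.42 without Areg -/- MII 3. The part of these cells in the results was not tested.

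The surroundings of the deleted gene were examined because a targeted allele brings its flanks with it. Of the 20 measured genes on each side of Areg in RefSeq order, 0 of 40 passed, and 1 was higher and 1 lower at an unadjusted p under 0.05 (5.0%, against 6.18% of all genes): Adamts3 (1.36) and Shroom3 (-0.92), named after their values were seen. Over the whole chromosome that carries Areg, 70 of 1025 genes reached that level (6.83%), and 1 passed the threshold. That gene was Uba6, which lies 61 measured genes from Areg. How far the flank carried with the allele reaches is not stated, so whether it includes Uba6 was not tested.

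Most of the 10 calls depended on the full set of arrays. With the 6 MII arrays alone, 0 genes passed by limma and 672 had an unadjusted p under 0.05. That fit rests on fewer samples and only on the MII groups, whose median within-group SDs were the wider ones. The part of each was not tested. Leaving out 1 array at a time gave 2 genes without wild-type MII 1, 3 without wild-type MII 3, 3 without Areg -/- MII 2 and 5 without Areg -/- MII 3. It gave 12 without wild-type MII 2, of which 6 were among the 10, and 32 without Areg -/- MII 1, of which 8 were. The GV arrays enter through the shared estimate of the spread. Of these, leaving out wild-type 1, wild-type 2 or Areg -/- 1 gave 3 genes each, wild-type 3 gave 5 and Areg -/- 3 gave 6. Leaving out Areg -/- GV 2 gave 10, of which 8 were among the 10 as reported. Uba6 kept its call without any of the 12 arrays. Crnkl1 lost it without wild-type MII 1 or Areg -/- MII 2, and Mrpl58 without these or wild-type MII 3. Fbxw13 lost it without wild-type GV 1, GV 2 or MII 3 and without Areg -/- GV 1, MII 2 or MII 3. Clybl kept it without wild-type GV 3, wild-type MII 2, Areg -/- GV 2 or Areg -/- MII 1, and lost it without each of the others. Uimc1 kept it only without Areg -/- GV 2, GV 3 or MII 1, Rbl2 only without Areg -/- GV 2 or MII 1, Kif21a only without Areg -/- MII 1, Tmem114 only without Areg -/- GV 2 and Arid5b only without wild-type MII 2. Under all these settings each of the 10 kept its direction, with Clybl between -5.34 and -4.11 and Uba6 between -4.09 and -3.45 when 1 array was left out.

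**Figure D5:**
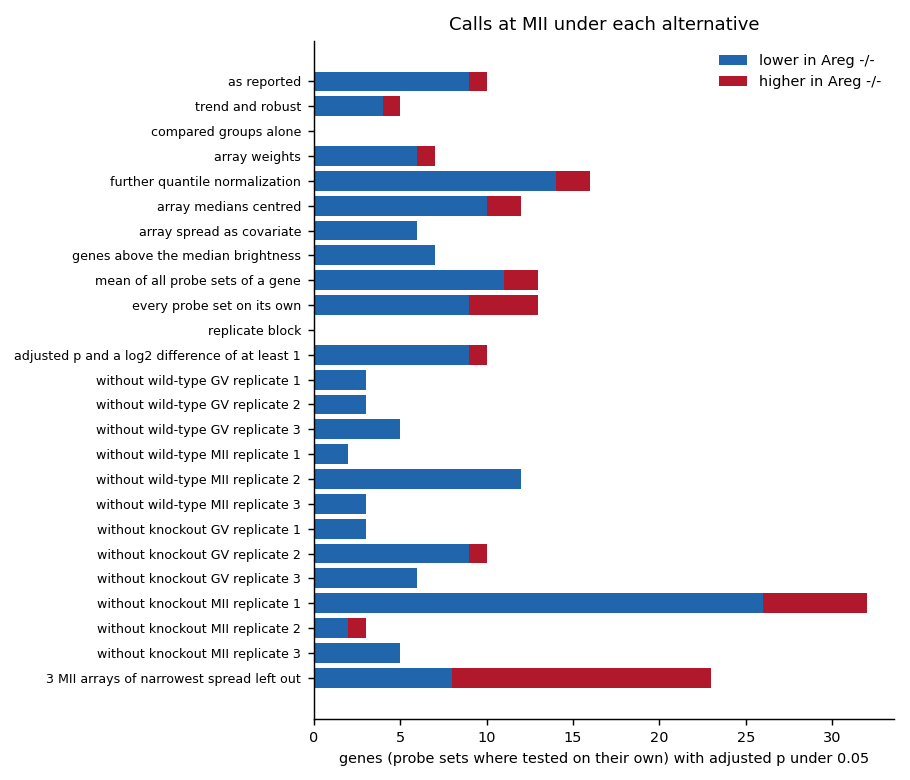
Number of genes with an adjusted p under 0.05 at MII (x axis) as reported and under each alternative (y axis, "knockout" stands for Areg -/-), blue for lower and red for higher in Areg -/- oocytes. The bar of 10 genes as reported compares with 0 for the compared groups alone and 32 without Areg -/- MII 1.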

How the data were processed

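Polysome-bound RNA of mouse oocytes was amplified, biotin labelled and hybridised to Affymetrix arrays, per the labels' protocols. The molecule field names total RNA instead, and the description fields speak of embryos and were not used. Each deposited value is a log2 intensity of a probe set, and the submitters' processing notes name RMA. Since RMA brings the arrays to a common scale, a shift shared by every message is not visible. The spread of the arrays still differed, with interquartile ranges of 3.36 to 4.72 over all groups. Without arrays of unfractionated RNA, loading and amount of a message cannot be told apart. The number of arrays limits the precision.

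Of 23950 probe sets, 64 were controls. Of 23886 RefSeq probe sets, 21230 matched 1 symbol, 0 several and 2656 none in a RefSeq table of GRCm38.p6, used for names and gene order. For 3019 genes with several probe sets the brightest was used. Groups came from the titles, and 0 per-sample columns were left unused.

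All 12 arrays entered 1 limma fit (limma 3.58.1, R 4.3.3, two-sided) with 1 mean for each group and neither trend nor robust moderation, adjusted by Benjamini-Hochberg over all 16579 genes. The fit was tested on simulated data that gave a gene the same spread in all groups, so it could not show the effect of unequal spread. Errors are limma's SE unless SD is named, and all differences are Areg -/- minus wild type on the log2 scale. Members and lists were chosen with earlier results of these data known.

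Named genes are the 6 fixed genes Areg, Dazl, Tpx2, Il7, Ccnb1 and Mos, up to 10 per direction past the threshold by size, filled by p among bright genes without overlap, up to 4 per list (3 if none passed), the neighbours of Areg, and up to 5 per direction that also pass the interaction. Alternatives were the moderation, the samples fitted, array weights, scaling, array spread, dim genes, probe set rule, size of change, replicate block and each array left out. Leaving out the 3 MII arrays of narrowest spread together was added after seeing the data. It left Areg -/- MII 1 as the only array of its group. The value of 1 listed gene is not reported here.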

Additional observations from a re-analysis of the deposited data

Results flagged for a closer look

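The probe sets without a gene symbol took no part in the gene comparison. Tested on their own with limma, 1 of 2656 passed at MII and 109 had an unadjusted p under 0.05. It stood at 9.19, 9.60 and 9.64 in Areg -/- MII, against 7.78, 7.68 and 7.91 in wild-type MII, a rise of 1.69 ± 0.21 (adjusted p = 0.016), and at GV at 8.84, 8.69 and 9.14 in Areg -/-, against 9.20, 9.08 and 8.87 in wild type.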

How the results depend on the processing

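The count of 10 genes at MII (1 higher, 9 lower) was 5 with trend and robust moderation (4 lower), 0 with the compared groups alone (0 higher, 0 lower), 16 after a further quantile normalization (2 and 14, all 10 kept), 6 with the array spread as a covariate (0 higher) and 23 without the 3 MII arrays of narrowest spread (15 higher, 1 of the 10 kept, an alternative added after seeing the data). Genes higher numbered 2 with array medians centred, 0 among bright genes, 2 with the mean of all probe sets and 4 with every probe set on its own. Leaving out 1 array gave 2 to 32 genes, 0 to 6 higher and 2 to 26 lower. At GV the count of 0 became 1 in the compared groups alone, 17 with array weights, 1 among bright genes and 0 to 3 with 1 array left out. The interaction's 0 became 0 to 1 with 1 array left out. The cause was not tested.

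With the replicate number as a block (replicate block) 0 genes passed (0 higher, 0 lower), against 1152 at an unadjusted p under 0.05. Same-numbered MII arrays had correlations of their deviations of 0.19, 0.12 and -0.02, and same-numbered GV arrays of 0.18, 0.03 and 0.26. The titles state no batch, so the numbers were not taken as pairs, but a pairing was not excluded. Areg -/- MII 3 correlated best with wild-type MII 2 (0.17), the other 2 with their own number.

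Of 1749 values of 80 named genes under alternatives, 1616 kept direction and side of the threshold, 114 lost the call, 3 gained it and 16 reversed, 0 of them of called genes. Areg reversed with array weights (0.02), Ccnb1 with the spread covariate (0.06), and Mos (-0.07), Kit (0.20), Itpr1 (0.01) and Kdm1b (0.13) without the narrow arrays. Without these, Areg -/- MII 1 alone stood against wild-type MII 1 and 3. With 1 array left out Areg ranged from -0.21 to 0.07, Tpx2 from -0.17 to 0.29, Il7 from -0.09 to 0.52, Ccnb1 from -0.08 to 0.02, Mos from 0.06 to 0.49, Kit from -1.31 to -0.56, Itpr1 from -1.01 to -0.32 and Kdm1b from -0.84 to -0.31. Pecam1 passed with the spread covariate (-2.27), and Tmem231 (-2.07) and Cdc16 (-2.82) without Areg -/- MII 1. Of the 21 list medians, 9 of at most 0.14 in size turned sign under at least 1 scaling.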
